A study of Homo sapiens with 8 samples.

Results

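The 10 keratin genes described here are KRT7, KRT8, KRT18, KRT19, KRT5, KRT6A, KRT15, KRT17, KRT80 and KRT81, found by matching their symbols through GENCODE to the Ensembl identifiers of the deposited table, which holds 43869 genes. All 10 have a value. H3122 is a human lung adenocarcinoma line that carries the EML4-ALK fusion, and the study selected it for growth in inhibitors of the ALK kinase and then measured RNA and H3K27ac, a histone acetylation found at active promoters and enhancers. The table gives 1 RNA library and 1 H3K27ac library for each of 4 lines. These are the naive H3122 line, never exposed to an inhibitor, and lines with evolved resistance to crizotinib (erCriz0, 0.5 µM), alectinib (erAlec0, 2 µM) and lorlatinib (erLor0, 2 µM). Each resistant line is a single derivation from H3122 through rising doses, RNA was taken after a period without drug, and the labels give DMSO vehicle as the treatment of the chromatin samples. Line, drug and derivation therefore cannot be told apart. With 1 library per line, the differences below rest on single libraries without a replicate check, and none was tested.

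Keratins are the intermediate filament proteins of epithelial cells. Each filament is built from pairs of an acidic type I keratin, encoded in the chromosome 17 cluster, and a basic type II keratin, encoded in the chromosome 12 cluster. KRT18 is the exception, a type I gene that lies beside its type II partner KRT8 on chromosome 12. Simple epithelia such as the lining of the airway and alveolus use KRT7, KRT8, KRT18 and KRT19, basal cells of stratified epithelia use KRT5 and KRT15, and KRT6A and KRT17 are the keratins of wounded or stressed epithelium. Loss of keratins is one of the changes described when epithelial cells take on mesenchymal features.

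Values are regularized log (rlog) levels, a log2 scale from the DESeq2 package on which a difference of 1 is a doubling. The scale pulls genes with few reads toward their mean across libraries, so small counts give understated differences, and read depth cannot be recovered from it. A change is the level in a resistant line minus the level in the naive line, and it is counted here as up from 1 and as down from -1. The study's methods set this limit for genes, and its use for peaks is a choice made here. Gene positions are on hg38. A gene is called expressed where its level reached 4.64, the log2 of the study's minimum of 25 reads, in at least 1 library, and 12701 genes did. The median level of the expressed genes was close in the 4 libraries, between 8.09 in erCriz0 and 8.14 in the naive line. All 6 epithelial markers examined were expressed, and their summed level, as log2, ranged from 13.77 in the naive line to 13.99 in erAlec0. Of these CDH3 alone passed the limit, at 8.67 in the naive line and 10.39, 9.79 and 9.95 in erCriz0, erAlec0 and erLor0. Of 4 lung epithelial markers 2 were expressed, and their summed log2 level was 8.98 in the naive line, 12.07 in erCriz0, 9.55 in erAlec0 and 9.47 in erLor0, the erCriz0 value resting on SLC34A2 (6.30 in the naive line and 11.92 in erCriz0). The leukocyte markers PTPRC, CD3E and CD14 were not expressed, with PTPRC listed at 0 and CD14 between 4.31 and 4.53. Among fibroblast markers COL1A1 alone of 4 with a value was expressed (summed log2 level of the list 9.51 in the naive line and 9.73, 10.00 and 10.09 in erCriz0, erAlec0 and erLor0). Of 3 endothelial markers CDH5 alone was expressed (summed log2 level 4.26, 4.42, 5.83 and 5.69 in the same order) and PECAM1 was near 0 throughout. The part of these shifts in the keratin differences was not tested.

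Of the 10 keratin genes 9 were expressed, KRT5 being the exception. In erCriz0, KRT6A was up and KRT80 and KRT81 were down. In erAlec0 and in erLor0, KRT6A and KRT17 were up and no member was down. Against this, the shares of all expressed genes that were up were 2.65%, 2.46% and 1.1% in erCriz0, erAlec0 and erLor0, and the shares that were down were 1.65%, 2.07% and 0.74%. Taking any difference from the naive line, 4 of the 9 expressed keratins were higher in erCriz0, and 9 of 9 were higher in erAlec0 and in erLor0, where 47.9%, 50.3% and 49.4% of all expressed genes were higher. After quantile normalization KRT18 alone turned lower, in erCriz0 (-0.18) and in erLor0 (-0.11). These comparisons share the naive library. The 9 had median changes of -0.13, 0.65 and 0.44 in erCriz0, erAlec0 and erLor0, beside medians of all expressed genes within 0.02 of 0. These are bulk libraries, in which fewer cells expressing a keratin and less RNA per cell cannot be told apart.

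**Figure D1:**
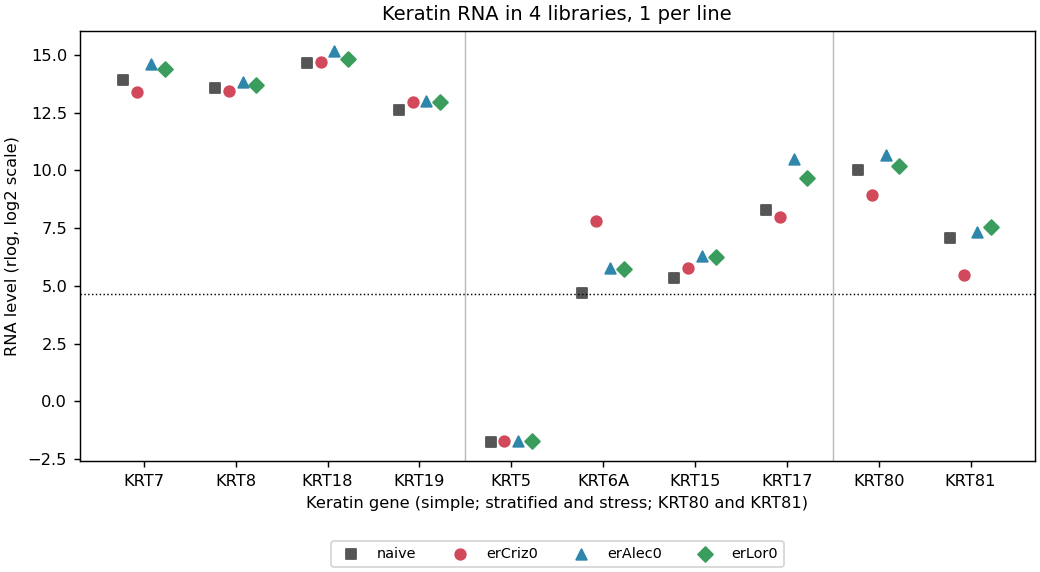
RNA level (rlog, log2 scale) of the 10 keratin genes in the naive, erCriz0, erAlec0 and erLor0 libraries, 1 point per library, with the 4.64 minimum dotted and vertical lines separating simple keratins, stratified and stress keratins, and KRT80 with KRT81. The simple keratins sit between 12.63 and 15.17 in all 4 libraries, and the wide gaps are at KRT6A, KRT17, KRT80 and KRT81.

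The simple keratins carried the high levels, and none of them passed the limit in any line. KRT18 (ENSG00000111057.11, chr12:52948871-52952906, plus strand), the type I partner of KRT8, had levels of 14.66 in the naive line, 14.68 in erCriz0, 15.17 in erAlec0 and 14.82 in erLor0. KRT8 (ENSG00000170421.12, chr12:52897187-52949954, minus strand) read 13.55, 13.42, 13.82 and 13.70 in the same order. Both genes were highest in erAlec0, with changes of 0.52 for KRT18 and 0.27 for KRT8 there. The KRT18 value depended on the scaling and was 0.06 after quantile normalization over expressed genes. In erAlec0, 80.2% of expressed genes changed less than KRT18 in absolute size and 54.6% less than KRT8. The annotated KRT8 and KRT18 genes overlap on opposite strands and the strand setting of the counting is not given, so reads of the overlap could be shared or dropped. KRT19 (ENSG00000171345.13, chr17:41523617-41528308, minus strand), the smallest type I keratin and a widely used carcinoma marker, was at 12.63 in the naive line and at 12.94, 12.99 and 12.95 in erCriz0, erAlec0 and erLor0. Its changes, 0.31, 0.36 and 0.32, were the most even of the 9 expressed members. KRT7 (ENSG00000135480.16, chr12:52232520-52252186, plus strand), a type II keratin of glandular and lung epithelium, had levels of 13.93, 13.41, 14.62 and 14.38 in the naive, erCriz0, erAlec0 and erLor0 libraries. It was the one simple keratin with an erCriz0 level well below the naive level (change -0.53) and erAlec0 and erLor0 levels above it (0.69 and 0.44). In absolute size 79.9%, 88.8% and 85.5% of expressed genes changed less than KRT7 in erCriz0, erAlec0 and erLor0.

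The stress keratins KRT6A and KRT17, which pair with each other in filaments of wounded epidermis, were the members furthest above the naive level, and they were highest in different lines. KRT6A (ENSG00000205420.11, chr12:52487176-52493257, minus strand), the type II partner, was barely above the minimum in the naive line at 4.70 and reached 7.82 in the erCriz0 library, with 5.75 in erAlec0 and 5.71 in erLor0. The erCriz0 change was 3.11, an 8.66-fold difference on the rlog scale, against 1.05 and 1.01 in erAlec0 and erLor0, which lie just past the limit. In erCriz0, 99.9% of expressed genes changed less in absolute size. KRT6A was the only member past the limit in the same direction in all 3 resistant lines, a call that is lost in erLor0 (0.99) after quantile normalization.

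KRT17 (ENSG00000128422.17, chr17:41619442-41624842, minus strand), the type I partner, had levels of 8.29 in the naive line, 7.98 in erCriz0, 10.48 in erAlec0 and 9.68 in erLor0. Its changes were -0.31, 2.20 and 1.39, or 4.58-fold in erAlec0 and 2.63-fold in erLor0 on the rlog scale. The erCriz0 library was thus the lowest of the 4 for KRT17 and the highest for KRT6A. In erAlec0, 99.8% of expressed genes changed less than KRT17 in absolute size. Reads of KRT6A and KRT17 can be shared with near-identical copies: over 2304 aligned bases KRT6A is 95.4% identical to KRT6C, and over 629 bases KRT17 is 94.4% identical to the pseudogene KRT17P1. KRT6C itself stayed below the minimum, with levels from 1.67 to 2.19, and so did KRT6B, from 1.75 to 2.07.

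The basal keratins differed from each other. KRT15 (ENSG00000171346.16, chr17:41513745-41522529, minus strand), a type I keratin of basal cells that lies next to KRT19, was expressed at a low level of 5.36 in the naive line, 5.75 in erCriz0, 6.30 in erAlec0 and 6.25 in erLor0. Its changes of 0.39, 0.94 and 0.89 stayed under the limit, although in erLor0 97.2% of expressed genes changed less. KRT5 (ENSG00000186081.12, chr12:52514575-52520530, minus strand), the defining type II keratin of basal cells, read -1.74, -1.73, -1.74 and -1.72 in the 4 lines and was not expressed. No H3K27ac peak lay within 1 kb of its start. The stretch before the KRT5 start is shown because it is the promoter of the member that was not expressed, as the 250 bases before the RefSeq start (GRCh38.p14, chr12:52520395-52520644, minus strand, 5′ to 3′, all in lower case with nothing marked).
KRT5 promoter: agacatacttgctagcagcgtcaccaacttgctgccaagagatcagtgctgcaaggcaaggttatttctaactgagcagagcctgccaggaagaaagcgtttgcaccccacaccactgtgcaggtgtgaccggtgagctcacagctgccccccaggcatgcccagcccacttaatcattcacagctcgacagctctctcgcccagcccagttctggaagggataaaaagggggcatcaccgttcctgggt

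KRT80 and KRT81 were the members counted as down in erCriz0. KRT80 (ENSG00000167767.14, chr12:52168996-52192014, minus strand), a type II keratin found near cell junctions and in differentiating epithelium, had levels of 10.02, 8.93, 10.67 and 10.18 in the naive, erCriz0, erAlec0 and erLor0 libraries, with changes of -1.09, 0.65 and 0.16. KRT81 (ENSG00000205426.10, chr12:52285913-52291534, minus strand), a type II hair keratin also expressed in some carcinomas, had levels of 7.08, 5.47, 7.31 and 7.55, with changes of -1.61, 0.24 and 0.47. For both genes the erCriz0 library lay below the other 3, and KRT81 there was at 0.328 times its naive level on the rlog scale. In erCriz0, 99.0% of expressed genes changed less than KRT81 and 96.7% less than KRT80 in absolute size. KRT81 lies inside the KRT86 gene on the opposite strand, and its transcript is 96.6% identical to that of KRT86 over 1325 aligned bases. KRT86 was at 4.27, 3.95, 5.35 and 5.05 in the naive, erCriz0, erAlec0 and erLor0 libraries.

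**Figure D2:**
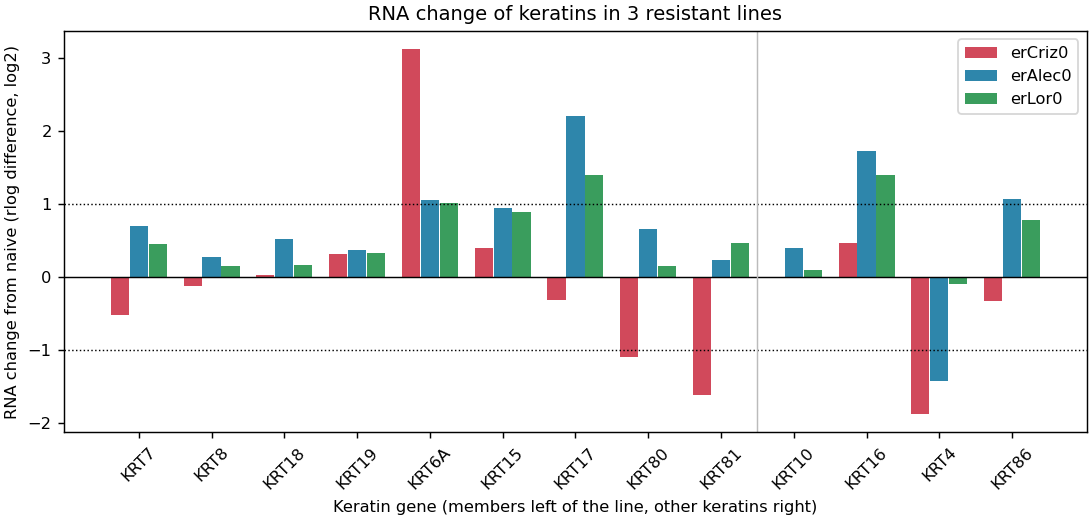
RNA change from the naive line (log2) in erCriz0, erAlec0 and erLor0 for the 9 expressed members and the 4 other expressed keratins, 1 bar per line, with dotted lines at the limits of 1 and -1. KRT6A is furthest up in erCriz0 at 3.11, KRT17 in erAlec0 at 2.20, and KRT80 and KRT81 are down in erCriz0 alone.

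The resistant lines were also set against each other. Across the 9 expressed members the erLor0 minus erAlec0 difference ran from -0.80 for KRT17 to 0.24 for KRT81, so none reached the limit. Of all expressed genes only 0.575% reached it upward and 0.653% downward, so its absence among 9 members is not particular to keratins. KRT4, an expressed keratin outside the members, was at 5.06 in erAlec0 and 6.37 in erLor0. The erAlec0 minus erCriz0 difference reached the limit for 5 members: KRT17 (2.51), KRT81 (1.84), KRT80 (1.74), KRT7 (1.22) and, in the opposite direction, KRT6A (-2.06). Of all expressed genes 3.22% were higher and 2.68% lower by the limit in that comparison, which shares the erAlec0 library with the one before. For the same 5 members the erLor0 minus erCriz0 difference was 1.70 (KRT17), 2.08 (KRT81), 1.25 (KRT80), 0.97 (KRT7) and -2.11 (KRT6A). The share of all expressed genes past the limit in this last comparison was not determined. The doses differed between the crizotinib line and the others, at 0.5 µM against 2 µM.

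Levels of partners can be read as the type II minus the type I rlog level within a library. For KRT8 and KRT18 this difference was -1.10 in the naive line, -1.26 in erCriz0, -1.35 in erAlec0 and -1.12 in erLor0, close in all 4 lines. For KRT7 and KRT19 it was 1.30, 0.47, 1.63 and 1.42, lowest in erCriz0. For KRT6A and KRT17 it was -3.58, -0.16, -4.73 and -3.97. The stress pair was therefore near parity on this scale in erCriz0 and strongly weighted to KRT17 in the other 3 lines. For the basal pair KRT5 and KRT15 it lay between -8.04 and -7.10, since KRT5 was not expressed.

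To compare genes with one another, the log2 of the exon length in kb was taken from each level. In the naive line these levels per kb were 13.04 for KRT18, 11.93 for KRT7, 11.40 for KRT19, 10.77 for KRT8, 7.90 for KRT80, 6.70 for KRT17, 6.13 for KRT81, 3.15 for KRT6A, 2.78 for KRT15 and -3.79 for KRT5. The 4 simple keratins stood above the rest in every line and KRT18 was first in all 4. In erCriz0 KRT6A, at 6.27 per kb, came close to KRT17 at 6.39 and passed KRT81 at 4.52. In erAlec0 and erLor0 KRT17, at 8.90 and 8.10 per kb, moved above KRT80, at 8.55 and 8.05. With the length of the longest transcript instead, KRT17 was above KRT80 in erCriz0 as well, at 7.10 against 6.97. KRT6A was then at 6.61 there, further below KRT17. Neighbours in these orders cannot be separated by a spread, as there is 1 library per line.

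In the rest of the family most genes with a value were below the minimum. Of 45 other protein-coding keratins in the annotation 35 had a value, and of these 4 were expressed and 19 were listed at 0. KRT14 was among those without a value. KRT16, the other type I partner of the KRT6 keratins in stressed epithelium, was highest in erAlec0 and next highest in erLor0 as KRT17 was, but was above the naive level in erCriz0, with naive, erCriz0, erAlec0 and erLor0 levels of 4.97, 5.44, 6.69 and 6.37 and changes of 0.46, 1.72 and 1.40. KRT4, a type II keratin of non-cornified stratified epithelium, was lower in erCriz0 and erAlec0, with levels of 6.48, 4.60, 5.06 and 6.37 and changes of -1.87, -1.42 and -0.10. KRT86 was up in erAlec0 (1.07), and KRT10, the type I keratin of the upper epidermis, changed by at most 0.40. In this list 0, 2 and 1 genes were up and 1, 1 and 0 down in erCriz0, erAlec0 and erLor0, and the median change of its expressed genes was -0.16, 0.74 and 0.43. Of 132 keratin pseudogenes in the annotation 72 had a value and 4 of these were expressed, with median changes of -0.04, 0.28 and 0.06. One of them, KRT8P3, was down in erCriz0, at 8.01 against 9.23 in the naive line (change -1.22). It is 96.9% identical to KRT8 over 869 bases, while KRT8 itself changed by -0.13 there.

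Keratin filaments are anchored at desmosomes by plakins. Of 18 desmosome and cytolinker genes 12 were expressed, none was down, and 0, 2 and 1 were up in erCriz0, erAlec0 and erLor0, with median changes of 0.10, 0.45 and 0.29. Desmoplakin (DSP), which ties keratins to the desmosome, had naive, erCriz0, erAlec0 and erLor0 levels of 10.76, 10.84, 11.78 and 12.02, with changes of 0.08, 1.03 and 1.26. Periplakin (PPL) had levels of 11.62, 12.25, 13.00 and 12.28, with changes of 0.63, 1.38 and 0.66. DSP was thus highest in erLor0 and PPL in erAlec0, and a link to any keratin was not tested. All 16 listed regulators of keratin genes were expressed, with median changes of -0.10, 0.04 and 0.08. HOPX, a homeodomain protein of lung alveolar cells and epidermis, was the only one past the limit, with levels of 4.96, 4.70, 6.95 and 7.37 and changes of -0.26, 1.99 and 2.40. By the distance over the 3 changes, the expressed genes most like KRT6A were TCN1 (distance 0.458, changes 2.66, 1.03 and 0.99), SOCS2 (0.793, changes 3.07, 1.79 and 0.72) and FCGR2A (0.830, changes 2.53, 0.69 and 0.55).

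H3K27ac was read at peaks merged over the 4 lines and paired with a gene where they lay within 20 kb of it. The keratin genes had 89 different peaks, 67 on chromosome 12 and 22 on chromosome 17, and 31 of them were paired with more than 1 member. The count of lower peaks was high in erCriz0 and erLor0. In erCriz0, 63 of 89 were lower than in the naive line, 0 were up and 15 down, beside 49.3% lower, 7% up and 5.94% down among all 126470 peaks. In erLor0, 69 were lower, 0 up and 1 down, beside 49.9%, 7.45% and 8.82%. In erAlec0, 50 were lower, 4 up and 1 down, beside 48.7%, 14.1% and 9.41%. The 89 peaks had median changes of -0.51, -0.10 and -0.34 in erCriz0, erAlec0 and erLor0. All 3 lines shared the direction at 37 lower peaks and 10 higher ones of the 89, where 25.4% of all peaks were lower and 25.6% higher in every line, and no peak passed the limit in all 3.

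The lower values in erCriz0 were mostly on chromosome 12, where 61 of 67 member peaks were lower, against 2 of 22 on chromosome 17. In erAlec0 the counts were 40 of 67 and 10 of 22, and in erLor0 57 of 67 and 12 of 22. On chromosome 12 the member peaks had a median change of -0.67 in erCriz0, while 1081 other peaks within 5 Mb had -0.06. In erLor0 the medians were -0.46 and 0.01, and in erAlec0 -0.15 and 0.17. Member peaks thus lay below their surroundings by 0.60, 0.47 and 0.31 in erCriz0, erLor0 and erAlec0. On chromosome 17 the 22 member peaks had median changes of 0.30, 0.09 and -0.04 in erCriz0, erAlec0 and erLor0, beside 0.02, 0.00 and 0.04 for 928 other peaks. None of the chromosome 17 peaks was down in erCriz0, where 15 of the 67 chromosome 12 peaks were.

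**Figure D3:**
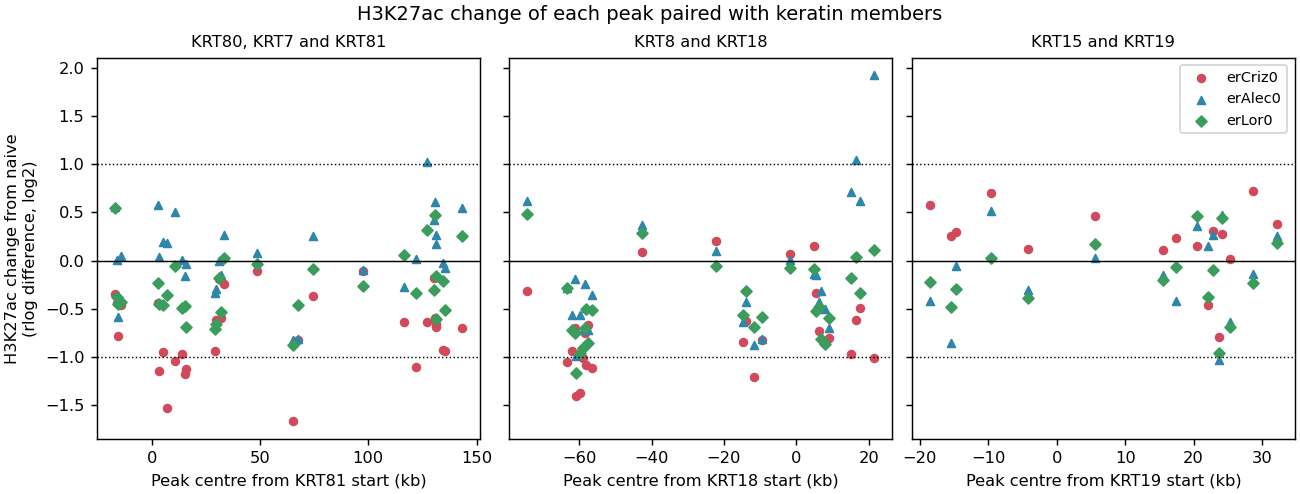
H3K27ac change from the naive line (log2) of peaks paired with KRT80, KRT7 and KRT81, with KRT8 and KRT18, and with KRT15 and KRT19. The 3 panels show distance from the start of KRT81, KRT18 or KRT19, with 1 point per peak and line. Peaks paired with KRT5, KRT6A and KRT17 are not drawn. Around KRT81 all erCriz0 points lie below 0, and around KRT19 most erCriz0 points lie above it.

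Along chromosome 12 the stretch with KRT80, KRT7 and KRT81 had 32 peaks, all lower in erCriz0, with a median of -0.68 and 7 down. The same peaks had medians of 0.02 in erAlec0 and -0.35 in erLor0. At KRT81 itself all 12 peaks were lower in erCriz0, from -1.53 to -0.35 with 5 down, and at KRT80 all 12 were lower with 1 down. At KRT7 all 9 were lower too, with 1 down and a median of -0.59. RNA was down in erCriz0 for KRT81 and KRT80 but not for KRT7 (-0.53). Around KRT8 and KRT18, where no RNA change passed the limit, 24 of 28 peaks were lower in erCriz0 (median -0.78, 8 down), 20 in erAlec0 (-0.33) and 24 in erLor0 (-0.52). The 5 strong peaks there, at a mean level over the 4 libraries of 8 or more, had median changes of 0.07, 0.37 and 0.11, and the 23 weaker ones -0.83, -0.43 and -0.58. Over all peaks of the table the same split gave 0.27, 0.14 and 0.27 for strong and -0.05, 0.00 and -0.03 for weak peaks. Of the 5 strong peaks, chr12:52868682-52880084 (-0.31) and chr12:52967118-52973826 (-1.01, counted as down) were nevertheless lower in erCriz0.

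The peaks over gene starts of the simple keratins were broad and differed from the naive line by less than the limit. The peak over the KRT7 start (chr12:52228226-52257608, hg38) was at 13.66, 13.55, 13.74 and 13.63 in the naive, erCriz0, erAlec0 and erLor0 libraries. The peak shared by KRT18 and the annotated start of KRT8 (chr12:52940531-52953687) was at 12.34, 12.41, 12.35 and 12.26, and the one spanning the start of the main KRT8 transcript (chr12:52893061-52919582) at 12.95, 13.04, 13.32 and 13.23. Levels at these 3 peaks differed from the naive line by at most 0.37. The peak that covers KRT15 and KRT19 (chr17:41513954-41531591) was at 11.59, 12.05, 11.62 and 11.76, with its largest change, 0.46, in erCriz0, and that of KRT80 (chr12:52178023-52210354) at 12.83, 12.72, 12.73 and 12.57. KRT80 therefore had a start peak within 0.11 of the naive level in erCriz0 while its RNA was lower by 1.09. No peak lay over the KRT81 start.

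All 5 KRT6A peaks were below the naive level in erAlec0 and erLor0, and 3 of the 5 were below it in erCriz0 as well. The start peak (chr12:52493147-52493887) was at 5.19 in the naive line, 5.40 in erCriz0, 4.68 in erAlec0 and 4.78 in erLor0. The next peak upstream, an intergenic one (chr12:52495214-52497289), was at 6.73, 7.53, 5.88 and 6.09, with changes of 0.80, -0.85 and -0.64. These 2 were highest in erCriz0, the line with the highest KRT6A RNA. The 3 peaks further upstream were highest in the naive line, with erCriz0 changes of -0.26 (chr12:52497512-52497728), -0.55 (chr12:52498151-52498604) and -0.20 (chr12:52500477-52502274). The middle of the second peak is shown because it had the largest erCriz0 change of the 5 KRT6A peaks (hg38, chr12:52496102-52496401, minus strand as for the gene, 5′ to 3′, nothing marked).
KRT6A upstream peak: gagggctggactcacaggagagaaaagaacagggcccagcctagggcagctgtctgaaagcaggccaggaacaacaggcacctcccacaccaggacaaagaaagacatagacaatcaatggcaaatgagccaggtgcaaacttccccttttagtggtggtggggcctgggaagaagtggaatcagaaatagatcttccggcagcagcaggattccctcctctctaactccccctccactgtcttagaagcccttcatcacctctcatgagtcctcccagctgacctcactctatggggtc

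KRT17 had 6 peaks, all weak, the highest naive level being 3.81, and all 6 were higher in erCriz0. The 3 medians were 0.60 (erCriz0), 0.43 (erAlec0) and 0.22 (erLor0), an order unlike that of its RNA. The upstream peak is the only one of the 6 to reach 3.91, the log2 of the study's minimum of 15 reads, in any line. With that minimum the values were 0.43, 0.99 and 0.17, and with pairs within 5 kb 0.43, 0.99 and 0.27, so that erAlec0 came first on both. The peak just upstream of the gene (chr17:41624930-41625446) was at 3.81, 4.24, 4.80 and 3.98, and the one inside it (chr17:41623958-41624229) at 2.44, 2.68, 3.45 and 2.71. Both were highest in erAlec0, with changes of 0.99 and 1.01, where KRT17 RNA was highest as well. The start of the main KRT17 transcript lies between them. The inner peak is shown because it was the KRT17 peak that passed the limit, with the 152 coding bases of exon 1 in capitals and the intron in lower case (hg38, minus strand, 5′ to 3′). This coding stretch is 98.0% identical over 152 bases to the pseudogenes KRT17P3 and KRT17P6, so how reads were placed among these copies is uncertain.
KRT17 exon 1 peak: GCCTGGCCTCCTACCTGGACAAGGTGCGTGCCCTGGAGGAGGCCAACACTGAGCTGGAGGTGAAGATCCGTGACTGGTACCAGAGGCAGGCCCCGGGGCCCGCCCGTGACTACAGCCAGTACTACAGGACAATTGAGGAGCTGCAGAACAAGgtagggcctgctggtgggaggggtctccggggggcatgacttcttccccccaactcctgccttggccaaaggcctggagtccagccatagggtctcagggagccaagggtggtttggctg

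Single peaks marked the extremes. In erCriz0 the largest rise was at chr17:41626357-41626570 near KRT17, in an exon of the pseudogene KRT42P, from 2.74 to 3.57, and the largest fall at an intergenic peak before KRT7, chr12:52224592-52227830, from 7.70 to 6.03 (change -1.67), which was also lower in erAlec0 (6.87) and erLor0 (6.82). An intergenic peak near KRT8 and KRT18, chr12:52967118-52973826, had the largest erAlec0 rise, with 8.04 in the naive line, 7.03 in erCriz0, 9.97 in erAlec0 and 8.16 in erLor0. That peak moved in opposite directions in erCriz0 (-1.01) and erAlec0 (1.92) and barely in erLor0 (0.11). The largest erAlec0 fall, in an exon of KRT13 near KRT15 and KRT19 (chr17:41504506-41504727), was -1.04. In erLor0 the largest rise was 0.55, at chr12:52308037-52309206 in a KRT86 exon near KRT81. The one peak down in erLor0 was an intergenic peak near KRT8 that also stayed below 3.91. Its levels were 3.31 in the naive line and 1.90, 2.32 and 2.14 in erCriz0, erAlec0 and erLor0. It is shown as the KRT8 peak under 300 bases with the largest erCriz0 change, -1.41 (hg38, chr12:52887930-52888178, minus strand, 5′ to 3′, nothing marked).
KRT8 intergenic peak: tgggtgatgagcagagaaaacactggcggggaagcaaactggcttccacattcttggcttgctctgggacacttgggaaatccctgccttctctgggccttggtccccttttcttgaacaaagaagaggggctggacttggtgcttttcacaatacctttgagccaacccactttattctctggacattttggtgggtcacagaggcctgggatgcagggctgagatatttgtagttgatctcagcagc

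Put side by side, RNA and the median change of the paired peaks had the same sign for 6, 4 and 1 of the 9 expressed members in erCriz0, erAlec0 and erLor0. The same share over all expressed genes was not determined, so these counts cannot be called particular to keratins. In erCriz0 KRT81 was lowest on both measures, with -1.61 in RNA and -0.96 in H3K27ac, followed by KRT80 in RNA with -1.09 and -0.65. KRT6A, with the highest RNA change, had a median peak change of -0.20, which was 0.0071 over peaks whose level reaches 3.91. In erAlec0 KRT17 was highest on both, with 2.20 and 0.43. The erAlec0 medians of KRT15 (0.03), KRT80 (0.21) and KRT81 (0.04) fell below 0 under at least 1 alternative. In that order they were -0.14 with the 3.91 minimum, -0.04 with pairs within 5 kb and -0.03 after quantile normalization. In erLor0 KRT17 was the only member with both above 0, at 1.39 and 0.22, since the other 8 had higher RNA and a lower median. KRT15, with an RNA change of 0.89 and a median of -0.09, joined it with pairs within 5 kb (0.05) or after centring over all peaks (0.0067). After quantile normalization of the RNA, KRT18 was below the naive level in erCriz0 (-0.18) and erLor0 (-0.11). Its peak medians there were -0.68 and -0.41, so the counts of shared signs depend on the scaling. Members that share peaks are not independent points, so no correlation is given.

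**Figure D4:**
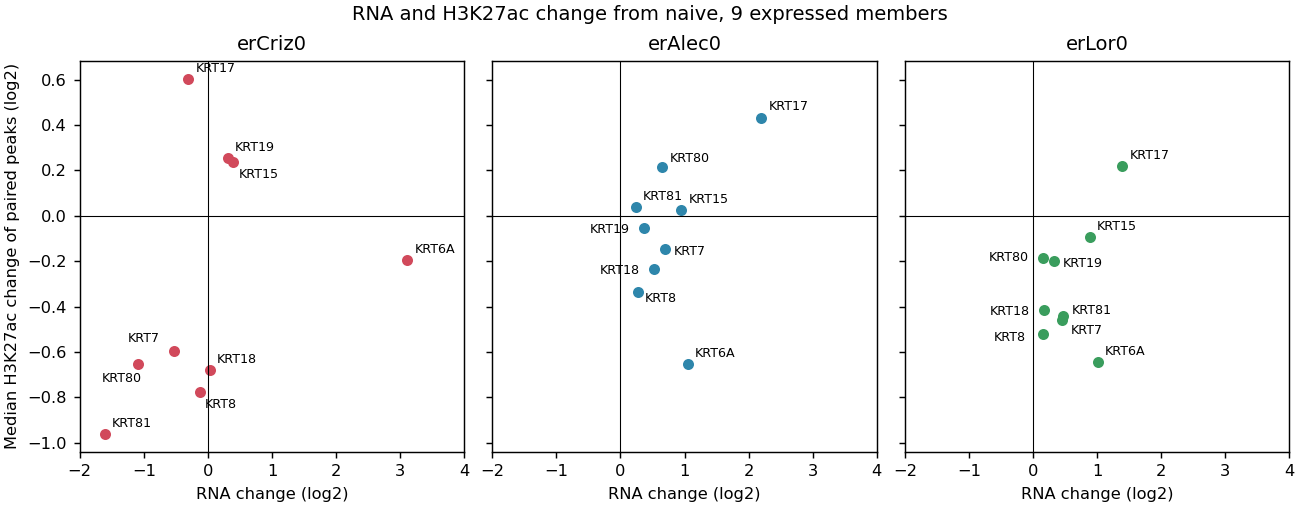
Median H3K27ac change of paired peaks (log2) against RNA change (log2), both from the naive line, for the 9 expressed keratins in erCriz0, erAlec0 and erLor0, 1 point per gene. KRT81 and KRT80 lie at the lower left in erCriz0, KRT17 at the upper right in erAlec0 and erLor0, and KRT6A right of 0 and below it in all 3 panels.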

How the data were processed

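RNA-seq and H3K27ac ChIP-seq of 4 H3122 lines were read from 1 deposited table of peak and gene pairs. The authors aligned reads to hg38, called and merged peaks with MACS2 and bedtools, counted genes with HTSeq-count and peaks with featureCounts, and deposited rlog values on a log2 scale made with DESeq2. Tool versions and the strand setting of the gene counting are not given in the sources used here. The table's columns of correlation and p-values between peaks and genes were not used. RNA columns carry the line's name and were matched to the line's chromatin sample by title. The other 4 samples of the series (erCriz1, erLor1, Lor 2w and the pooled input) were not analysed here.

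Changes were taken as differences of rlog values with Python 3.11.15, pandas 2.3.3 and numpy 2.4.6, and drawn with matplotlib 3.10.9. Identity between transcripts came from blastn 2.17.0. Of 43869 genes 43669 matched GENCODE 44, which gave symbols, strands and exon lengths. Each peak was counted once where members share it. All 10 members were named, and from the lists (other keratins, keratin pseudogenes, desmosome and cytolinker genes, keratin gene regulators) the expressed genes with a change of 1 or more in either direction in any line, at most 8 per list. KRT10, KRT6B, KRT6C and the single peaks described beside the start peaks and extremes were added after their values were seen, as were the printed peaks. The members and lists were chosen with earlier results of these data known. Depth is unknown from rlog values. The result for 1 leukocyte marker is not reported here. Alternatives were other limits, scalings, pairing distances, windows and low-level filters, and, chosen after seeing the data, removal of the trend with peak level in 50 bins. RefSeq supplied the KRT5 promoter, 2 of 10 members being in its table.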

Additional observations from a re-analysis of the deposited data

Results flagged for a closer look

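KRT7, KRT8, KRT17, KRT80 and KRT81 changed in opposite directions in different resistant lines, each from 1 library per line. The differences were not tested, and the share of all expressed genes with such mixed directions was not determined. In erCriz0, 27.4% of expressed genes changed less than KRT8 (-0.13) in absolute size. KRT17 RNA was above the naive level in erAlec0 and below it in erCriz0, a difference of 2.51 on the log2 scale. KRT80 differed in the same way between erAlec0 and erCriz0, by 1.74. KRT81 was above the naive level in erLor0 and below it in erCriz0, a difference of 2.08. KRT7 and KRT8 were above the naive level in erAlec0 and below it in erCriz0, by differences of 1.22 and 0.40, and neither passed the limit in any line.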

How the results depend on the processing

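No paired analysis was possible because each line has 1 library and no replicate numbers are shared, and for the same reason no library could be left out. Of 57 alternative values for the RNA changes of the members, 56 kept their side of the limit. The exception was KRT6A in erLor0, 0.99 after quantile normalization, which leaves 1 member up there. KRT18 changed sign under the same scaling, from 0.02 to -0.18 in erCriz0 and from 0.17 to -0.11 in erLor0, and its erAlec0 change went from 0.52 to 0.06, and the cause was not tested. Of 129 alternatives for counts, regions and lists 85 kept their value, by 1.5 times for counts and 0.1 for medians. A limit of 2 leaves 1 member up in erAlec0, 0 up in erLor0, 0 down in erCriz0, no other keratin up or down, and 0 member peaks down in any line or up in erAlec0. A limit of 1.5-fold gives 5 members up in erAlec0, 2 other keratins up in erLor0, 6 and 9 peaks up in erCriz0 and erAlec0, and 43, 16 and 23 down in erCriz0, erAlec0 and erLor0. Pairs within 5 kb leave 7, 0 and 0 peaks down and 2 up in erAlec0. Quantile normalization gives 2 peaks up and 6 down in erAlec0 and 4 down in erLor0, and centring gives 2 down in erAlec0. Removing the trend with peak level, chosen after seeing the data, gives 2 up in erCriz0, 3 down in erAlec0, 4 down in erLor0 and 0.41 for chromosome 17 peaks minus their surroundings in erCriz0. Keeping peaks whose level reaches 3.91, the log2 of 15, gives 0 down in erAlec0 and erLor0, and chromosome 17 differences of 0.17, -0.18 and -0.32. A 2 Mb window gives 0.38 and 0.22 on chromosome 17 in erCriz0 and erAlec0 and -0.50 on chromosome 12 in erAlec0. With all genes that have a value, the other keratins have a median of 0 in each line, and the desmosome list 0.12 in erAlec0 and 0.023 in erLor0. Of 147 alternatives for a member's median peak change 46 moved by more than 0.1. Peaks paired with a single gene gave no value, since 0 member peaks are. Levels per kb moved for 9 of 10 members with the longest transcript, and the order of KRT17 and KRT80 in erCriz0 changed.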
